A study of Mus musculus with 6 samples.

Results

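Axon guidance ligands and receptors were followed in NMuMG, a mouse mammary gland line of epithelial origin, as it responded to TGF-β and to the calcium entry modulator 2APB. All rows of the count table whose symbols named an Eph receptor, an ephrin, a semaphorin of the vertebrate classes, a plexin, a neuropilin, a Robo receptor, a Slit, a netrin or an Unc5 receptor were taken. The symbol patterns matched 68 of 18512 rows, and the 50 genes with a mean raw count of 20 or more over the 6 libraries were kept. They were 8 Eph receptors, 8 ephrins, 16 semaphorins, 9 plexins, 2 neuropilins, 2 Slits, 1 Robo receptor, 2 netrins and 2 Unc5 receptors, or 28 ligands and 22 receptors. The mean raw counts nearest to the minimum were 20.3 for *Plxnc1* and 24.3 for *Sema3a* inside it, and 17.7 for *Robo2* and 17 for *Unc5a* outside it. The other 16 rows left out by the minimum were *Epha6*, *Epha8*, *Ephb1*, *Ephb3*, *Ntn3*, *Ntn5*, *Plxna4os1*, *Robo3*, *Robo4*, *Sema3d*, *Sema3g*, *Sema5a*, *Sema5b*, *Slit3*, *Unc5cl* and *Unc5d*, of which *Plxna4os1* and *Unc5cl* match the pattern by their letters and belong to none of the families.

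The 3 groups were cells given the vehicle dimethylsulfoxide (DMSO), cells given TGF-β at 5 ng/ml, and cells given TGF-β at 5 ng/ml together with 2APB at 50 uM (TGF-β+2APB), with 2 libraries each. TGF-β is a cytokine that drives the epithelial to mesenchymal transition, and 2APB (2-aminoethoxydiphenyl borate) modulates store-operated calcium entry. Cells of all groups were serum-starved, and the treatment is given as 24 h in one place of the study and as 2APB for 24 h ahead of TGF-β in another, so the timing is not settled here. All cells came from the same line, and cells given 2APB without TGF-β were not analysed here. The comparison of TGF-β with DMSO asks how these genes respond to the cytokine, and setting TGF-β+2APB against TGF-β asks what the added 2APB changed.

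These proteins were named for steering growing axons, and the same ligands and receptors act between epithelial cells, where they bear on cell sorting, adhesion, migration and the actin cytoskeleton. Eph receptors are receptor tyrosine kinases that bind ephrins on the neighbouring cell, with signals running into both cells. Semaphorins bind plexins, secreted class 3 semaphorins mostly through a neuropilin co-receptor. Slits bind Robo receptors, and netrins bind Dcc, neogenin and the Unc5 receptors.

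Total counts ran from 71840570 to 79473182 a library, and the 50 genes took 0.367% to 0.44% of them. Epithelial markers were abundant (7 of 8 in the table, summed normalized counts of 531500 to 566200 in DMSO, 706900 to 829600 in TGF-β and 1316000 to 1384000 in TGF-β+2APB), although *Epcam* held only 52 to 158 raw counts a library. They did not move together, since *Krt8*, *Krt18* and *Cldn4* rose with TGF-β (0.66 ± 0.090, 0.92 ± 0.098 and 7.45 ± 0.36 on the log2 scale) while *Cdh1*, *Krt19* and *Epcam* fell (-0.78 ± 0.13, -2.04 ± 0.35 and -1.42 ± 0.30), and the 3 rises and 3 falls also passed for TGF-β+2APB against DMSO. The milk protein genes *Csn2*, *Csn1s1*, *Wap* and *Lalba* were not analysed here, and the myoepithelial keratins *Krt5* and *Krt14* held 0 to 4 raw counts. Of the other myoepithelial markers, *Trp63* held 0 to 6 and *Oxtr* 0 to 12. *Acta2* had raw counts of 20 and 10 in DMSO, 110 and 46 in TGF-β, and 92 and 88 in TGF-β+2APB. Its rises against DMSO passed with TGF-β (2.357 ± 0.532 on the log2 scale) and with TGF-β+2APB (2.555 ± 0.534). All 8 hepatocyte markers were in the table, and their summed normalized counts were 110300 to 117800 in DMSO, 14490 to 19930 in TGF-β and 8553 to 11490 in TGF-β+2APB. *Alb*, the gene of serum albumin, accounted for 28820 to 31570 of the normalized counts in DMSO and 19.73 to 93.5 in the treated libraries. All 6 neuron markers were in the table, *Syt1* fell from 54 to 70 raw counts in DMSO to 0 to 2 in TGF-β+2APB, and the other 5 held 0 to 6. Summed normalized counts of glia markers, mostly *Mbp*, were 6242 to 8972 and those of endothelial markers 9.83 to 53.3. *Smad7*, a TGF-β target that encodes an inhibitor of the pathway, had 4762 and 4506 raw counts in DMSO, 9362 and 9226 in TGF-β, and 12904 and 11914 in TGF-β+2APB, with no overlap between groups. Over all genes tested, the median log2 difference between replicates, without sign, was 0.0655 in DMSO, 0.22 in TGF-β and 0.0965 in TGF-β+2APB. For the 50 genes it was 0.0718, 0.154 and 0.211. In blood cell markers a single library stood apart. TGF-β+2APB replicate 2 held summed normalized counts of 31420 on 6 blood cell markers, against 384.1 in replicate 1, 319.6 to 1005 in TGF-β and 1525 to 4188 in DMSO. Most of the 31420 came from *Lyz2*, with *Ptprc*, *Itgam* and *Csf1r* at 752 to 1018 raw counts and the T cell gene *Cd3e* at 2. The part of these marker shifts in the results was not tested, and calls that ended without that library are given with their values. In bulk RNA, fewer cells of a type and less RNA per cell cannot be told apart. The study describes the 2 libraries of a group as biological replicates. The p-values measure only the spread between such replicates, estimated over all 6 libraries in 1 fit of the 3 groups.

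With TGF-β, 32 of the 50 genes (64%) passed an adjusted p of 0.05 by edgeR's quasi-likelihood test, against 41.5% of all 13353 genes tested. The 21 that rose made up 42% of the genes, against 21.8% over all genes, and the 11 that fell made up 22%, against 19.7%. With TGF-β+2APB against DMSO, 36 genes (72%) passed, against 52.8% of all genes. Of these, 18 rose (36%, against 25.6%) and 18 fell (36%, against 27.2%). Between TGF-β+2APB and TGF-β, 17 genes (34%) passed, against 17.5% of all genes, with 7 higher (14%, against 6.58%) and 10 lower (20%, against 10.9%). The comparisons share libraries, so they are not independent of each other. The median log2 fold changes of the 50 genes stayed near 0, at 0.104, 0.102 and -0.0956 in that order, against -0.0102, -0.00326 and -0.00367 over all genes. The median sizes of change without sign were 0.665, 0.935 and 0.538, against 0.353, 0.442 and 0.227. Among the Eph receptors, ephrins, semaphorins and plexins, changes ran in both directions in each comparison, as the plot of all 50 genes shows. Values after "log2" are fitted log2 fold changes ± standard error (n = 2 libraries a group), and adjusted p-values are Benjamini-Hochberg values of edgeR's quasi-likelihood test over all genes tested.

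**Figure D1:**
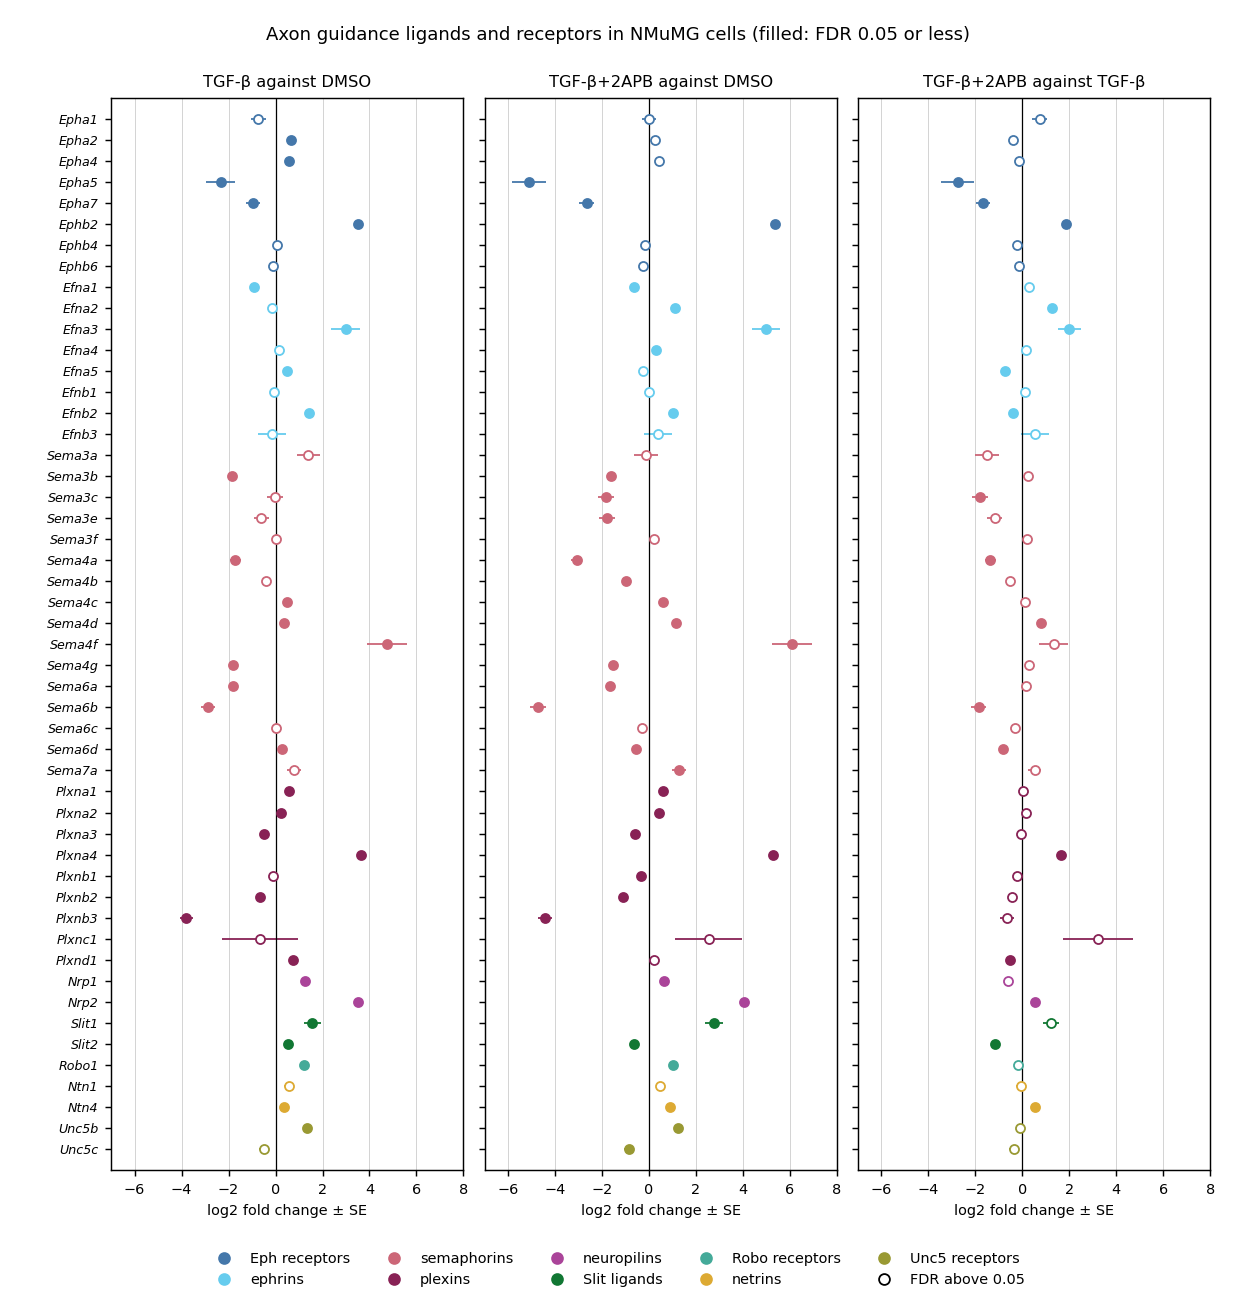
Fitted log2 fold changes (x axis) with standard errors (bars) of the 50 axon guidance genes (rows, coloured by family) in the 3 comparisons, with filled points for genes at an adjusted p of 0.05 or less. In the left panel 21 filled points lie to the right of 0 and 11 to the left, in the middle panel 18 and 18, and in the right panel 7 and 10.

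Of the 8 Eph receptors, 3 rose and 2 fell with TGF-β, 1 rose and 2 fell with TGF-β+2APB against DMSO, and 1 rose and 2 fell between TGF-β+2APB and TGF-β. In that order, 62.5%, 37.5% and 37.5% were called, against 41.5%, 52.8% and 17.5% of all genes tested. *Ephb2*, which encodes a receptor for B-type ephrins, had normalized counts (scaled to the mean library) of 39.3 and 39.2 in DMSO, 477 and 429.6 in TGF-β, and 1760 and 1494 in TGF-β+2APB. The groups did not overlap, and each treatment added a step. The rise was 11.5-fold with TGF-β (log2 3.52 ± 0.15, adjusted p = 7.25e-05), 41.3-fold with TGF-β+2APB against DMSO (log2 5.37 ± 0.16, adjusted p = 1.72e-05) and 3.59-fold between TGF-β+2APB and TGF-β (log2 1.84 ± 0.13, adjusted p = 0.00307). *Epha5* went the other way, with normalized counts of 230.0 and 320.2 in DMSO, 52.6 and 56 in TGF-β, and 1.98 and 13.8 in TGF-β+2APB. The groups did not overlap, and TGF-β+2APB replicate 1 was almost empty of it. *Epha5* fell 5.06-fold with TGF-β (log2 -2.34 ± 0.61, adjusted p = 0.0275), 34.3-fold with TGF-β+2APB against DMSO (log2 -5.10 ± 0.73, adjusted p = 0.00226) and 6.78-fold between the treatments (log2 -2.76 ± 0.70, adjusted p = 0.0486). *Epha7*, which like *Epha5* encodes a receptor for A-type ephrins, had normalized counts of 2661 and 2661 in DMSO, 1114 and 1604 in TGF-β, and 299 and 546 in TGF-β+2APB. Its levels stepped down in the same order, without overlap. *Epha7* fell 1.96-fold (log2 -0.97 ± 0.30, adjusted p = 0.0476), 6.29-fold (log2 -2.65 ± 0.32, adjusted p = 0.0012) and 3.21-fold (log2 -1.68 ± 0.31, adjusted p = 0.0203) in the same 3 comparisons. In both genes TGF-β+2APB replicate 2, the library with blood cell markers, lay nearer to DMSO than replicate 1. Without it the log2 fold change of *Epha5* against DMSO was -7.01, and those between TGF-β+2APB and TGF-β were -4.69 for *Epha5* and -2.18 for *Epha7*. Of 14 alternative settings, 6 kept the call of *Epha5* between the treatments and 11 that of *Epha7*. Their calls with TGF-β were kept under 10 and 9. Over these settings the log2 fold changes between the treatments ran from -4.69 to -1.92 for *Epha5* and from -2.18 to -1.34 for *Epha7*.

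The most abundant Eph receptor per kb of exon was *Ephb4*, with means of 3061 normalized counts per kb in DMSO, 3221 in TGF-β and 2712 in TGF-β+2APB. Its normalized counts of 14520 and 13880 in DMSO, 16230 and 13660 in TGF-β, and 12130 and 13030 in TGF-β+2APB overlapped between TGF-β and DMSO and passed the test in no comparison. *Epha2*, a receptor abundant in many epithelia, had means of 1482 normalized counts per kb in DMSO, 2371 in TGF-β and 1774 in TGF-β+2APB. It rose 1.6-fold with TGF-β (log2 0.68 ± 0.11, adjusted p = 0.00484), while its difference between TGF-β+2APB and TGF-β missed the threshold (log2 fold change -0.42, adjusted p = 0.0503). *Epha4*, whose product binds both classes of ephrin, rose 1.49-fold with TGF-β (log2 0.58 ± 0.15, adjusted p = 0.0281) and passed no other comparison. *Epha1* and *Ephb6* passed in none, with adjusted p-values from 0.113 to 0.995. The promoters of *Ephb2* and *Epha5*, the Eph receptors with the largest rise and fall with TGF-β that had an entry, are printed with the 250 bases before the RefSeq start on GRCm38.p6. *Ephb2* (chr4:136836013-136836262, minus strand) carried 1 E2 box, CAGGTG or CACCTG, a sequence that SNAI1, ZEB and other factors bind, 19 bases from the start and written in capitals. *Epha5* (chr5:84417383-84417632, minus strand) carried none.
Ephb2: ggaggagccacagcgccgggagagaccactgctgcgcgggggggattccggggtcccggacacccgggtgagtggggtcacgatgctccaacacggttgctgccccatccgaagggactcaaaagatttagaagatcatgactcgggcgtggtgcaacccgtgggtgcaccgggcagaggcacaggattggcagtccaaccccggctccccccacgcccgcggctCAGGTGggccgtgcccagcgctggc
Epha5: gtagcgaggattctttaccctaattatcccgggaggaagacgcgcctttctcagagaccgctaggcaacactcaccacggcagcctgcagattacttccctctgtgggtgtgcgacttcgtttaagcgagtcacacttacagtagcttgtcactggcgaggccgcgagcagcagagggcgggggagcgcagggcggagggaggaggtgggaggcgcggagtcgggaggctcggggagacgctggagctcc

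Of the 8 ephrins, 3 rose and 1 fell with TGF-β, 4 rose and 1 fell with TGF-β+2APB against DMSO, and 2 rose and 2 fell between TGF-β+2APB and TGF-β. *Efnb2*, a transmembrane ligand of EphB receptors and of EphA4, had normalized counts of 3811 and 4225 in DMSO, 10800 and 10540 in TGF-β, and 8295 and 7935 in TGF-β+2APB. The 3 groups were separate, with TGF-β highest. *Efnb2* rose 2.66-fold with TGF-β (log2 1.41 ± 0.083, adjusted p = 0.000166) and 2.02-fold with TGF-β+2APB against DMSO (log2 1.01 ± 0.082, adjusted p = 0.000289), and it was 1.32-fold lower in TGF-β+2APB than in TGF-β (log2 -0.40 ± 0.081, adjusted p = 0.0272). That last call ended when any 1 of the 4 DMSO and TGF-β+2APB libraries was left out, with a log2 fold change of -0.37 (adjusted p = 0.173) without TGF-β+2APB replicate 2. *Efna3*, one of the ephrins held to the membrane by a lipid anchor, started near the limit of detection, with normalized counts of 1.97 and 6.2 in DMSO, 42.9 and 22.8 in TGF-β, and 142 and 120.4 in TGF-β+2APB. The counts climbed from group to group without overlap. *Efna3* rose 7.91-fold (log2 2.98 ± 0.60, adjusted p = 0.0115), 31.5-fold (log2 4.98 ± 0.61, adjusted p = 0.00126) and 3.99-fold (log2 2.00 ± 0.49, adjusted p = 0.046) in the 3 comparisons. In DMSO the raw counts were 2 and 6, so the folds against DMSO rest on few reads, and over the alternative settings their log2 values ran from 1.99 to 3.98 with TGF-β and from 3.68 to 5.98 with TGF-β+2APB. The call between the treatments ended when any 1 library other than TGF-β replicate 1 was left out, with a log2 fold change of 2.10 (adjusted p = 0.0651) without TGF-β+2APB replicate 2, and 344 of the exon bases of *Efna3* overlap *Gm15998*. *Efna2*, of the same anchored class, had normalized counts of 218 and 242 in DMSO, 218 and 197 in TGF-β, and 550.4 and 452 in TGF-β+2APB. TGF-β+2APB stood above both other groups, which met at 218, 2.18-fold above DMSO (log2 1.12 ± 0.17, adjusted p = 0.00289) and 2.41-fold above TGF-β (log2 1.27 ± 0.17, adjusted p = 0.00935). With TGF-β its log2 fold change was -0.15 (adjusted p = 0.531).

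*Efna1* was the most abundant ephrin per kb in every group, with means of 4839 normalized counts per kb in DMSO, 2593 in TGF-β and 3125 in TGF-β+2APB. Its normalized counts were 8980 and 8731 in DMSO, 5429 and 4061 in TGF-β, and 5914 and 5522 in TGF-β+2APB, all treated libraries below both DMSO libraries. *Efna1* fell 1.87-fold with TGF-β (log2 -0.90 ± 0.14, adjusted p = 0.00502) and 1.55-fold with TGF-β+2APB (log2 -0.63 ± 0.14, adjusted p = 0.0133), and the latter call ended when any 1 of the 4 DMSO and TGF-β+2APB libraries was left out, with a log2 fold change of -0.56 (adjusted p = 0.084) without TGF-β+2APB replicate 2. *Efna5* rose 1.4-fold with TGF-β (log2 0.48 ± 0.098, adjusted p = 0.0116) and was 1.68-fold lower in TGF-β+2APB than in TGF-β (log2 -0.75 ± 0.098, adjusted p = 0.00881). *Efna4* was 1.23-fold higher in TGF-β+2APB than in DMSO (log2 0.30 ± 0.095, adjusted p = 0.0401), a call that ended in the same 4 fits, with a log2 fold change of 0.40 (adjusted p = 0.0768) without TGF-β+2APB replicate 2. *Efnb1* and *Efnb3* passed no comparison, with adjusted p-values from 0.539 to 0.963.

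Of the 16 semaphorins, 4 rose and 5 fell with TGF-β, and 4 rose and 9 fell with TGF-β+2APB against DMSO. Between TGF-β+2APB and TGF-β, 1 was higher and 4 were lower. The shares called were 56.2%, 81.2% and 31.2%, against 41.5%, 52.8% and 17.5% of all genes tested. Class 3 semaphorins are secreted, and those of classes 4, 6 and 7 are tethered to the membrane. None of the 5 class 3 genes rose past the threshold in any comparison, against 21.8%, 25.6% and 6.58% of all genes tested. With 5 genes, that count does not describe the class. *Sema3b* had normalized counts of 1567 and 1533 in DMSO, 434 and 415 in TGF-β, and 459 and 543 in TGF-β+2APB. Both treatments lay well below DMSO. *Sema3b* fell 3.65-fold with TGF-β (log2 -1.87 ± 0.12, adjusted p = 0.000209) and 3.09-fold with TGF-β+2APB (log2 -1.63 ± 0.12, adjusted p = 0.000186), with a log2 difference of 0.24 between the treatments (adjusted p = 0.213). *Sema3c* counted 7129 and 7169 in DMSO, 5343 and 8616 in TGF-β, and 1400 and 2575 in TGF-β+2APB. Both TGF-β+2APB libraries stood far below DMSO, and the 2 TGF-β libraries lay on either side of it. *Sema3c* was 3.6-fold lower in TGF-β+2APB than in DMSO (log2 -1.85 ± 0.34, adjusted p = 0.00635) and 3.51-fold lower than in TGF-β (log2 -1.81 ± 0.34, adjusted p = 0.0216). *Sema3e*, whose product binds plexin D1 without a neuropilin, counted 10650 and 10500 in DMSO, 5811 and 8064 in TGF-β, and 2031 and 4056 in TGF-β+2APB. Its counts were ordered DMSO, TGF-β and TGF-β+2APB, and the fall passed the test for TGF-β+2APB against DMSO (3.47-fold, log2 -1.80 ± 0.34, adjusted p = 0.00665) but not for TGF-β (log2 fold change -0.61, adjusted p = 0.195) or between the treatments (-1.19, adjusted p = 0.0641). *Sema3c* and *Sema3e* differed between the TGF-β+2APB replicates, and without replicate 2 the log2 fold changes against DMSO were -2.33 and -2.36. In the same fit the log2 fold changes of *Sema3e* were -1.77 between the treatments and -0.59 for TGF-β. Of 14 alternative settings, 4 called *Sema3e* between the treatments and 3 called it for TGF-β. The call of *Sema3c* between the treatments was kept under 11. *Sema3f* and *Sema3a* passed no comparison, with adjusted p-values from 0.0727 to 0.996. The lowest was that of *Sema3a* with TGF-β, at a log2 fold change of 1.40 ± 0.50.

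The 6 class 4 genes split evenly in TGF-β+2APB against DMSO, with 3 higher and 3 lower. Over all genes tested, 25.6% were higher and 27.2% lower in that comparison. *Sema4a*, which was the most abundant semaphorin per kb in DMSO, had means of 1549 normalized counts per kb in DMSO, 472 in TGF-β and 183 in TGF-β+2APB. Its normalized counts of 8454 and 8291 in DMSO, 2811 and 2291 in TGF-β, and 760.2 and 1219 in TGF-β+2APB stepped down without overlap. *Sema4a* fell 3.28-fold with TGF-β (log2 -1.71 ± 0.23, adjusted p = 0.00266), 8.46-fold with TGF-β+2APB against DMSO (log2 -3.08 ± 0.24, adjusted p = 0.000258) and 2.58-fold between the treatments (log2 -1.37 ± 0.23, adjusted p = 0.0165). *Sema4g* counted 1270 and 1173 in DMSO, 353 and 338 in TGF-β, and 432 and 404 in TGF-β+2APB. It dropped to a similar range with both treatments, 3.54-fold (log2 -1.82 ± 0.11, adjusted p = 0.00017) and 2.92-fold (log2 -1.55 ± 0.11, adjusted p = 0.000169), and its log2 difference between them was 0.28 (adjusted p = 0.136). *Sema4d*, the ligand of plexin B1, counted 2060 and 1988 in DMSO, 2676 and 2451 in TGF-β, and 4641 and 4248 in TGF-β+2APB. It rose 1.27-fold with TGF-β (log2 0.34 ± 0.083, adjusted p = 0.0219), 2.2-fold with TGF-β+2APB against DMSO (log2 1.14 ± 0.084, adjusted p = 0.000207) and 1.73-fold between the treatments (log2 0.79 ± 0.083, adjusted p = 0.0054). *Sema4f* was nearly silent in DMSO, with normalized counts of 0 and 4.13 in DMSO, 54.5 and 60.2 in TGF-β, and 168 and 122 in TGF-β+2APB. It was detected in all treated libraries above both DMSO libraries. The rises of *Sema4f* passed the test with TGF-β (log2 4.74 ± 0.85, adjusted p = 0.00745) and with TGF-β+2APB against DMSO (log2 6.08 ± 0.86, adjusted p = 0.00217). DMSO held 4 raw counts in all, and the fitted log2 fold changes ran from 3.13 to 8.85 and from 4.33 to 10.2 over the alternative settings. Between the treatments *Sema4f* missed the threshold (log2 fold change 1.34, adjusted p = 0.195). *Sema4c*, the most abundant semaphorin per kb in both treated groups, had means of 693 normalized counts per kb in DMSO, 978 in TGF-β and 1048 in TGF-β+2APB and normalized counts of 3219 and 3144 in DMSO, 4667 and 4321 in TGF-β, and 4930 and 4694 in TGF-β+2APB. All treated libraries lay above DMSO. *Sema4c* rose 1.41-fold with TGF-β (log2 0.50 ± 0.074, adjusted p = 0.00388) and 1.51-fold with TGF-β+2APB (log2 0.60 ± 0.074, adjusted p = 0.00134). *Sema4b* was 1.96-fold lower in TGF-β+2APB than in DMSO (log2 -0.97 ± 0.14, adjusted p = 0.00247).

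Class 6 semaphorins bind class A plexins, and 2 of the 4 genes fell several-fold. *Sema6b* counted 1380 and 1273 in DMSO, 232 and 133 in TGF-β, and 41.6 and 59.2 in TGF-β+2APB, with no overlap between groups. *Sema6b* fell 7.26-fold with TGF-β (log2 -2.86 ± 0.30, adjusted p = 0.00118), 26.3-fold with TGF-β+2APB against DMSO (log2 -4.71 ± 0.34, adjusted p = 0.00019) and 3.62-fold between the treatments (log2 -1.85 ± 0.32, adjusted p = 0.0171). *Sema6a* counted 712 and 597 in DMSO, 183 and 191 in TGF-β, and 188 and 223 in TGF-β+2APB. It fell 3.5-fold with TGF-β (log2 -1.81 ± 0.17, adjusted p = 0.000804) and 3.18-fold with TGF-β+2APB (log2 -1.67 ± 0.17, adjusted p = 0.00063), and the treated groups overlapped. *Sema6d* counted 2640 and 2928 in DMSO, 3385 and 3322 in TGF-β, and 1831 and 1969 in TGF-β+2APB, highest in TGF-β and lowest in TGF-β+2APB. *Sema6d* was 1.2-fold higher with TGF-β than in DMSO (log2 0.27 ± 0.083, adjusted p = 0.0473), 1.46-fold lower with TGF-β+2APB than in DMSO (log2 -0.55 ± 0.084, adjusted p = 0.00289) and 1.77-fold lower with TGF-β+2APB than with TGF-β (log2 -0.82 ± 0.084, adjusted p = 0.00501). The rise of *Sema6d* with TGF-β was called under 5 of 14 alternative settings, and both other calls under all 14. In *Sema4a* and *Sema6b* too, TGF-β+2APB replicate 2 lay nearer to DMSO than replicate 1. Without it the log2 fold changes between the treatments were -1.75 and -2.14. Their calls between the treatments were kept under 11 and 10 of 14 alternative settings, with log2 fold changes from -1.75 to -1.1 and from -2.2 to -1.4. *Sema6c* passed no comparison. *Sema7a*, a lipid-anchored semaphorin that binds integrins and plexin C1, counted 47.2 and 35.1 in DMSO, 70.1 and 70.6 in TGF-β, and 111 and 90.8 in TGF-β+2APB and was 2.44-fold higher in TGF-β+2APB than in DMSO (log2 1.29 ± 0.29, adjusted p = 0.0135). The promoters of *Sema4f* (chr6:82939770-82940019, minus strand), with the largest fitted rise, and of *Sema6b* (chr17:56140344-56140593, minus strand, the first of 2 entries), with the largest fall among the semaphorins, are given as before. *Sema4f* held 2 E2 boxes, in capitals, 104 and 83 bases before the start, and *Sema6b* held none.
Sema4f: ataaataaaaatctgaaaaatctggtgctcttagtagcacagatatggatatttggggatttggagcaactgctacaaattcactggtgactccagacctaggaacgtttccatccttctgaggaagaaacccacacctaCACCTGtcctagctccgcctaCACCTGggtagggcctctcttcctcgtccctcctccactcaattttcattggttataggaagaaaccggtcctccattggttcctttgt
Sema6b: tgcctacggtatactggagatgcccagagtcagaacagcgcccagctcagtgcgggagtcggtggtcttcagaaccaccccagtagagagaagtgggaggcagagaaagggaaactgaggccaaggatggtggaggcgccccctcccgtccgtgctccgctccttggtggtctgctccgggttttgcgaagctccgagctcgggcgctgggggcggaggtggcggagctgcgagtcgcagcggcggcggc

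**Figure D2:**
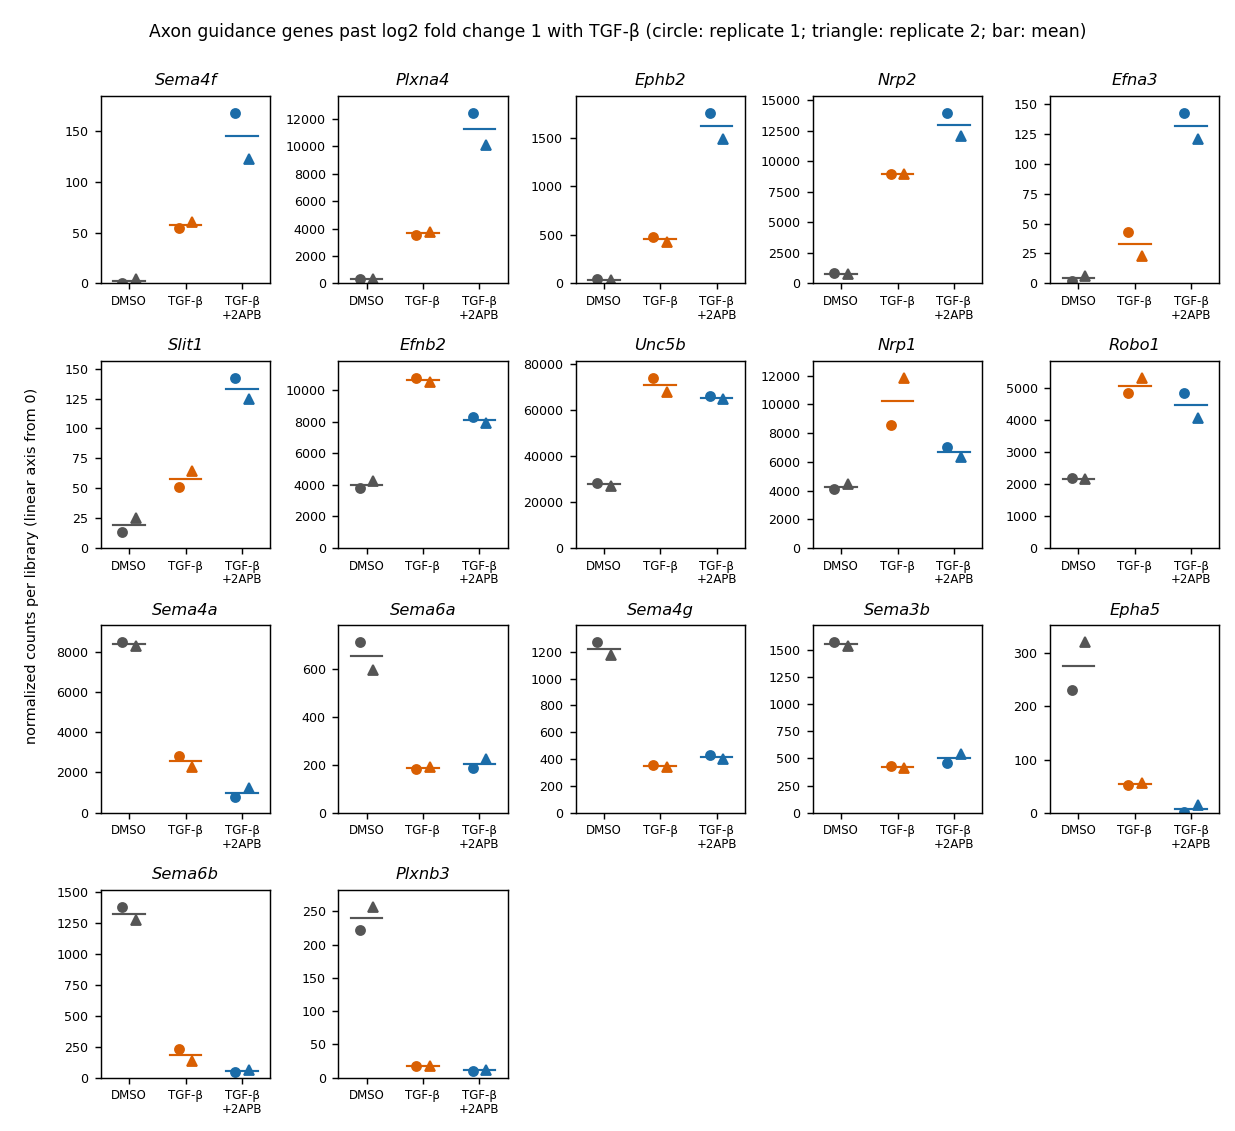
Normalized counts (y axes, linear from 0, scaled per gene) in the 6 libraries for the 17 axon guidance genes that passed an adjusted p of 0.05 and a log2 fold change of 1 in size with TGF-β, ordered from the largest rise to the largest fall. Circles and triangles are replicates 1 and 2 and bars their means. In all 17 panels both TGF-β libraries lie on one side of both DMSO libraries. The genes were chosen by this comparison, so their separation is not a further result.

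Of the 9 plexins, the receptors of semaphorins, 4 rose and 3 fell with TGF-β, 3 rose and 4 fell with TGF-β+2APB against DMSO, and 1 was higher and 1 lower between the treatments. In that order, 77.8%, 77.8% and 22.2% were called, against 41.5%, 52.8% and 17.5% of all genes tested. *Plxna4*, whose product pairs with neuropilins and also binds class 6 semaphorins, had normalized counts of 303 and 285 in DMSO, 3565 and 3762 in TGF-β, and 12450 and 10100 in TGF-β+2APB. The 3 groups were far apart. *Plxna4* rose 12.5-fold with TGF-β (log2 3.64 ± 0.13, adjusted p = 5.09e-05), 38.3-fold with TGF-β+2APB against DMSO (log2 5.26 ± 0.14, adjusted p = 1.47e-05) and 3.08-fold between the treatments (log2 1.62 ± 0.12, adjusted p = 0.00311). Of its 14103 exon bases, 110 overlap the antisense gene *Plxna4os3*. *Plxnb3* counted 222 and 256 in DMSO, 17.5 and 16.6 in TGF-β, and 9.9 and 11.8 in TGF-β+2APB. Hardly any of the DMSO level remained in either treatment. *Plxnb3* fell 13.9-fold with TGF-β (log2 -3.80 ± 0.28, adjusted p = 0.000361) and 21.8-fold with TGF-β+2APB (log2 -4.44 ± 0.30, adjusted p = 0.000152), and the 2 treatments differed by a log2 fold change of -0.65 (adjusted p = 0.225). *Plxnb2*, the most abundant of the 50 genes per kb in DMSO, had means of 10060 normalized counts per kb in DMSO, 6341 in TGF-β and 4640 in TGF-β+2APB. It counted 79030 and 76260 in DMSO, 54130 and 43770 in TGF-β, and 34210 and 37420 in TGF-β+2APB. The fall was 1.59-fold with TGF-β (log2 -0.67 ± 0.12, adjusted p = 0.00664) and 2.17-fold with TGF-β+2APB (log2 -1.12 ± 0.12, adjusted p = 0.000707), and the step between the treatments narrowly missed the threshold (log2 fold change -0.45, adjusted p = 0.0503).

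*Plxna1* rose 1.47-fold with TGF-β (log2 0.56 ± 0.084, adjusted p = 0.00393) and 1.52-fold with TGF-β+2APB (log2 0.60 ± 0.084, adjusted p = 0.00203). *Plxna2* rose 1.19-fold (log2 0.25 ± 0.078, adjusted p = 0.0471) and 1.33-fold (log2 0.41 ± 0.078, adjusted p = 0.007), of which the first was called under 6 of 14 alternative settings and the second not without either DMSO library or without TGF-β+2APB replicate 2, with a log2 fold change of 0.37 (adjusted p = 0.0571) in the last. *Plxna3* fell 1.43-fold (log2 -0.51 ± 0.083, adjusted p = 0.00509) and 1.5-fold (log2 -0.58 ± 0.083, adjusted p = 0.00218). *Plxnd1*, the receptor of Sema3e, rose 1.68-fold with TGF-β (log2 0.75 ± 0.10, adjusted p = 0.00317) and was 1.46-fold lower in TGF-β+2APB than in TGF-β (log2 -0.55 ± 0.10, adjusted p = 0.022), a call that ended when any 1 of the 4 DMSO and TGF-β+2APB libraries was left out, with a log2 fold change of -0.51 (adjusted p = 0.13) without TGF-β+2APB replicate 2. *Plxnb1* was 1.26-fold lower in TGF-β+2APB than in DMSO (log2 -0.33 ± 0.080, adjusted p = 0.0159), and this too ended in those 4 fits, with a log2 fold change of -0.36 (adjusted p = 0.0851) without TGF-β+2APB replicate 2. *Plxnc1*, a plexin known from blood cells, held 8 and 8 raw counts in DMSO, 4 and 6 in TGF-β, and 2 and 94 in TGF-β+2APB. Most of its counts came from the library with blood cell markers, and only through that library did it reach the minimum mean raw count of 20. It passed no comparison.

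Both neuropilins rose with TGF-β and with TGF-β+2APB against DMSO. *Nrp2*, a co-receptor of class 3 semaphorins and of some vascular endothelial growth factors, had normalized counts of 835 and 748 in DMSO, 8962 and 8969 in TGF-β, and 13960 and 12050 in TGF-β+2APB. The groups did not overlap, and the means were 66.8 normalized counts per kb in DMSO, 757 in TGF-β and 1098 in TGF-β+2APB. *Nrp2* rose 11.3-fold with TGF-β (log2 3.50 ± 0.11, adjusted p = 3.91e-05), 16.4-fold with TGF-β+2APB against DMSO (log2 4.04 ± 0.12, adjusted p = 1.66e-05) and 1.45-fold between the treatments (log2 0.54 ± 0.10, adjusted p = 0.0211). *Nrp1* counted 4078 and 4425 in DMSO, 8586 and 11860 in TGF-β, and 7024 and 6314 in TGF-β+2APB, with means of 434 normalized counts per kb in DMSO, 1045 in TGF-β and 682 in TGF-β+2APB. All treated libraries lay above both DMSO libraries, and the TGF-β libraries above those with 2APB. *Nrp1* rose 2.4-fold with TGF-β (log2 1.27 ± 0.17, adjusted p = 0.0025) and 1.57-fold with TGF-β+2APB (log2 0.65 ± 0.16, adjusted p = 0.0193), and its log2 difference between the treatments was -0.62 (adjusted p = 0.0549). The means per kb of *Nrp1* and *Nrp2* were in opposite order in DMSO and in TGF-β+2APB. The promoters of *Nrp2* (chr1:62703067-62703316, plus strand) and *Plxnb3* (chrX:73756853-73757102, plus strand), the largest rise and fall of the semaphorin receptors with an entry, held no E2 box.
Nrp2: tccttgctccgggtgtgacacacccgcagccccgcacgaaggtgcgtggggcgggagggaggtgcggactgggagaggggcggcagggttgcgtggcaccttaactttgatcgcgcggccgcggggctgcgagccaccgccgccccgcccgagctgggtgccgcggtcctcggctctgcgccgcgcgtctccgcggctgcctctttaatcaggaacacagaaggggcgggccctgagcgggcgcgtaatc
Plxnb3: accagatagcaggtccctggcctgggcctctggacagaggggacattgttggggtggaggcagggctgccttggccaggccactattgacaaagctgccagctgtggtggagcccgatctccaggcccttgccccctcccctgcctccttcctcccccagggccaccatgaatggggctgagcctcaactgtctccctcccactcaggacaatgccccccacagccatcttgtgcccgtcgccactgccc

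Over all 6 printed windows, neither the AP-1 site (TGAGTCA or TGACTCA) nor the palindromic SMAD element (GTCTAGAC) was found. On both strands, 17.2% of 32851 upstream windows of the same length held an E2 box, 4.46% an AP-1 site and 0.167% the SMAD palindrome. Of the 56 windows of the 42 guidance genes with an entry, 14.3%, 3.57% and 0% did. These are matches of letters and not shown to be bound.

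*Slit2*, a secreted ligand of Robo receptors, had normalized counts of 611 and 570.2 in DMSO, 902 and 811 in TGF-β, and 396 and 365 in TGF-β+2APB. TGF-β was highest and TGF-β+2APB lowest, with DMSO between them and no overlap. *Slit2* was 1.45-fold higher with TGF-β than in DMSO (log2 0.54 ± 0.12, adjusted p = 0.0144), 1.55-fold lower with TGF-β+2APB than in DMSO (log2 -0.63 ± 0.12, adjusted p = 0.00605) and 2.25-fold lower with TGF-β+2APB than with TGF-β (log2 -1.17 ± 0.12, adjusted p = 0.00501). Without TGF-β+2APB replicate 2 the fall against DMSO was just outside the threshold, at a log2 fold change of -0.56 (adjusted p = 0.0513), while the difference between the treatments kept its call under all 14 alternatives. *Slit1* counted 13.8 and 24.8 in DMSO, 50.6 and 64.3 in TGF-β, and 142 and 124 in TGF-β+2APB. It climbed from group to group, 2.97-fold with TGF-β (log2 1.57 ± 0.38, adjusted p = 0.0211) and 6.9-fold with TGF-β+2APB against DMSO (log2 2.79 ± 0.39, adjusted p = 0.00201), and the step between the treatments had an adjusted p of 0.0716 (log2 fold change 1.21). *Robo1*, the only Robo receptor above the count minimum, counted 2194 and 2149 in DMSO, 4835 and 5327 in TGF-β, and 4858 and 4068 in TGF-β+2APB, with means of 132 normalized counts per kb in DMSO, 308 in TGF-β and 270.3 in TGF-β+2APB. Both treated groups lay above DMSO and overlapped each other. *Robo1* rose 2.34-fold with TGF-β (log2 1.23 ± 0.11, adjusted p = 0.000645) and 2.06-fold with TGF-β+2APB (log2 1.04 ± 0.11, adjusted p = 0.000688), with a log2 difference of -0.19 between them (adjusted p = 0.278). Per kb, *Slit2* was the more abundant Slit in DMSO (means of 23.2 against 3.26 for *Slit1*) and *Slit1* in TGF-β+2APB (22.5 against 15.0 for *Slit2*).

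*Unc5b*, a netrin receptor that can signal cell death when no netrin is bound, was the most abundant of the 50 genes per kb in both treated groups, with means of 4445 normalized counts per kb in DMSO, 11350 in TGF-β and 10480 in TGF-β+2APB. It counted 28390 and 27240 in DMSO, 74220 and 67780 in TGF-β, and 66270 and 64870 in TGF-β+2APB. *Unc5b* rose 2.55-fold with TGF-β (log2 1.35 ± 0.073, adjusted p = 0.000136) and 2.36-fold with TGF-β+2APB (log2 1.24 ± 0.073, adjusted p = 0.000103), and between the treatments its log2 fold change was -0.11 (adjusted p = 0.324). *Unc5c* was 1.8-fold lower in TGF-β+2APB than in DMSO (log2 -0.85 ± 0.23, adjusted p = 0.0242). *Ntn4*, a netrin that binds laminin in basement membranes, was the most abundant netrin per kb, with means of 722 normalized counts per kb in DMSO, 925 in TGF-β and 1345 in TGF-β+2APB. Its normalized counts were 2738 and 2663 in DMSO, 3518 and 3405 in TGF-β, and 5207 and 4857 in TGF-β+2APB, rising from group to group. *Ntn4* rose 1.28-fold with TGF-β (log2 0.36 ± 0.070, adjusted p = 0.0103), 1.86-fold with TGF-β+2APB against DMSO (log2 0.90 ± 0.071, adjusted p = 0.000259) and 1.45-fold between the treatments (log2 0.54 ± 0.070, adjusted p = 0.00851). *Ntn1* passed no comparison, with adjusted p-values of 0.0624, 0.0802 and 0.808.

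The families took different shares of the counts on the 50 genes in DMSO and in the treated libraries. Plexins took 49.3% and 49.2% of them in the DMSO libraries and 38.2% to 41.1% in the treated libraries. Unc5 receptors took 10.3% and 10% in DMSO and 21.5% to 22.7% in the treated libraries, nearly all of it *Unc5b*. Semaphorins took 17.4% in each DMSO library, 9.99% and 11.7% in TGF-β, and 7.67% and 8.92% in TGF-β+2APB. Neuropilins took 1.77% and 1.89% in DMSO and 5.15% to 7.19% in the treated libraries. Eph receptors stayed between 9.99% and 11.4% and ephrins between 7.56% and 8.42%. The total they are shares of also changed, from 0.367% and 0.368% of all counts in DMSO to 0.44% and 0.419% in TGF-β. It was 0.371% and 0.379% in TGF-β+2APB. A lower share is therefore not by itself a lower level of the family. The family shares were not tested.

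**Figure D3:**
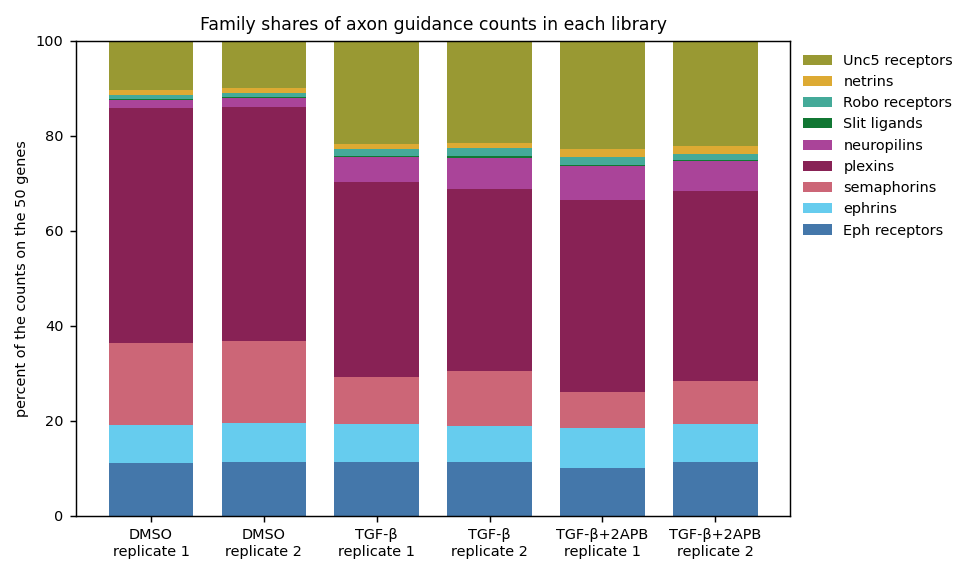
Percent of the counts on the 50 axon guidance genes (y axis, to 100%) that each family took in each of the 6 libraries (bars). The plexin share runs from 49.3% in DMSO replicate 1 to 38.2% in TGF-β replicate 2, and the Unc5 share from 10% in DMSO replicate 2 to 22.7% in TGF-β+2APB replicate 1. A lower share is not by itself a lower level, as the shares of the other families enter it.

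The 17 genes that passed between TGF-β+2APB and TGF-β lay in different positions relative to DMSO. The 7 higher genes were *Ephb2*, *Efna2*, *Efna3*, *Ntn4*, *Nrp2*, *Plxna4* and *Sema4d*, and in the TGF-β+2APB libraries all 7 were above both DMSO libraries. The 10 lower genes were *Epha5*, *Epha7*, *Efna5*, *Efnb2*, *Plxnd1*, *Sema3c*, *Sema4a*, *Sema6b*, *Sema6d* and *Slit2*. Of these, *Efnb2* and *Plxnd1* had TGF-β+2APB counts between those of DMSO and TGF-β, and the counts of the other 8 were below both DMSO libraries. *Efna5*, *Sema6d* and *Slit2* were above DMSO in both TGF-β libraries and below it in both TGF-β+2APB libraries, as the plot relative to DMSO shows. Against DMSO, *Efna5* had log2 fold changes of 0.48 with TGF-β and -0.26 with TGF-β+2APB (adjusted p = 0.0683 for the latter). The calls of *Ephb2*, *Efna2*, *Plxna4*, *Sema4d*, *Sema6d* and *Slit2* held under every alternative fit, those with each library left out in turn among them. The other 11 calls ended without at least 1 library, and their highest adjusted p over the alternatives ran from 0.0508 for *Efna5* to 0.173 for *Efnb2*. Without either DMSO library, *Epha5*, *Epha7*, *Efna3*, *Efnb2*, *Nrp2*, *Plxnd1*, *Sema3c*, *Sema4a* and *Sema6b* missed the threshold. The fit shares its estimate of the spread with DMSO, and the cause of these losses was not tested. Without TGF-β+2APB replicate 1, 9 of the 17 were kept, *Efna5* and *Ntn4* among the 8 lost, and without replicate 2, 14.

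**Figure D4:**
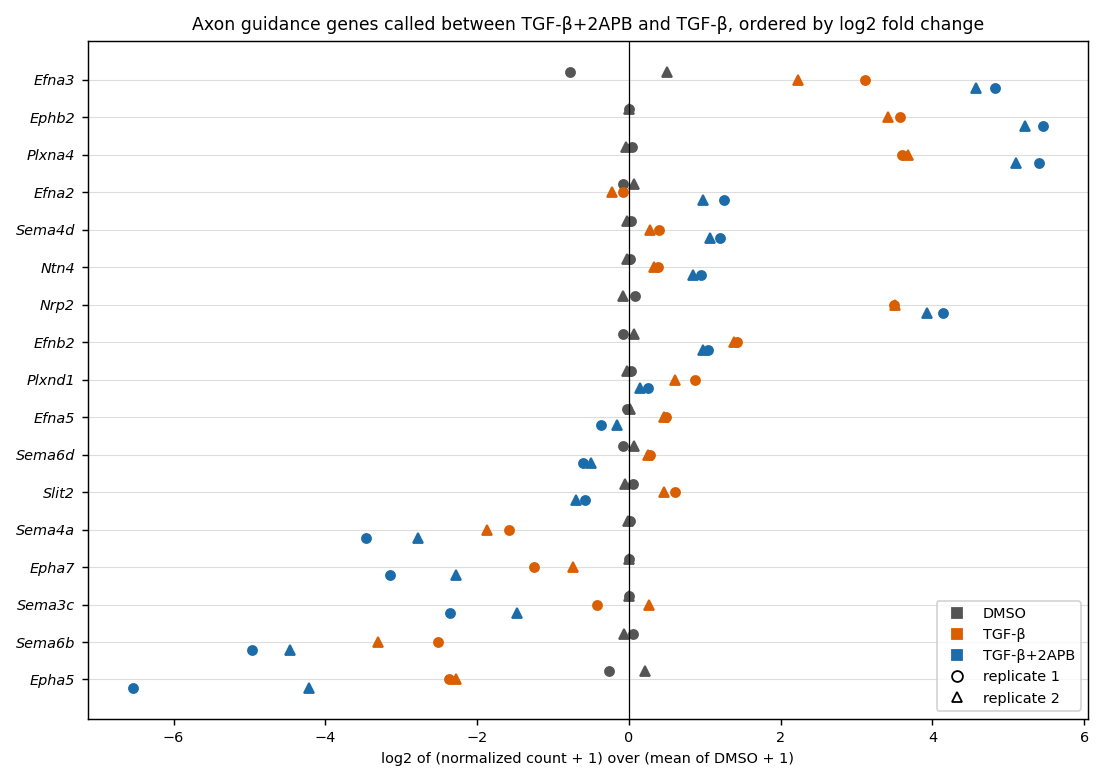
Level in each library as the log2 of the normalized count plus 1 over the DMSO mean plus 1 (x axis) for the 17 axon guidance genes called between TGF-β+2APB and TGF-β (rows, ordered by that log2 fold change), with circles for replicate 1 and triangles for replicate 2. TGF-β+2APB points lie to the right of TGF-β points for 7 genes and to the left for 10. The genes were chosen by that comparison, and the TGF-β+2APB replicates lie farthest apart for Epha5.

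With TGF-β, 17 of the 32 calls held with each library left out in turn, 10 of them rises (*Ephb2*, *Efnb2*, *Nrp1*, *Nrp2*, *Plxna1*, *Plxna4*, *Plxnd1*, *Robo1*, *Sema4f* and *Unc5b*) and 7 of them falls (*Efna1*, *Plxnb3*, *Sema3b*, *Sema4a*, *Sema4g*, *Sema6a* and *Sema6b*). Without DMSO replicate 1, 19 of the 32 were kept and without DMSO replicate 2, 21, with *Epha4*, *Epha5*, *Epha7*, *Efna5*, *Ntn4*, *Plxna2*, *Sema4d*, *Sema6d* and *Slit2* lost in both fits. The highest adjusted p of these 9 over the alternatives ran from 0.0987 for *Efna5* to 0.303 for *Sema6d*. *Epha2* (adjusted p = 0.0541), *Plxnb2* (0.0544), *Efna3* (0.0646) and *Slit1* (0.121) were lost without DMSO replicate 1, and *Plxna3* (0.0558) and *Sema4c* (0.0511) without replicate 2. With TGF-β+2APB against DMSO, 28 of the 36 held, with 29 kept without either DMSO library and 31 without either TGF-β+2APB library. The 8 that did not were *Efna1*, *Efna4*, *Nrp1*, *Plxna2*, *Plxnb1*, *Sema7a*, *Slit2* and *Unc5c*, with a highest adjusted p from 0.0557 for *Slit2* to 0.293 for *Efna4*.

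Genes that work beside these ligands and receptors were described from 2 further lists. Of 30 guidance partners (other receptors, binding proteins, proteases and proteoglycans), 22 could be tested. With TGF-β 9 rose and 7 fell, with TGF-β+2APB against DMSO 10 rose and 7 fell, and between the treatments 1 was higher and 4 lower, or 72.7%, 77.3% and 22.7% called, against 41.5%, 52.8% and 17.5% of all genes tested. *Dcc*, the classical netrin receptor, held 0 to 4 raw counts, and *Neo1* (neogenin, its relative) held 19612 to 26670 and passed no comparison. *Gpc1*, a heparan sulfate proteoglycan that can bind Slits, had normalized counts of 157 and 153 in DMSO, 6292 and 5489 in TGF-β, and 7276 and 6335 in TGF-β+2APB. Its log2 fold changes against DMSO were 5.25 ± 0.13 with TGF-β and 5.45 ± 0.13 with TGF-β+2APB. *Lrrc4c*, which encodes the netrin-G ligand NGL-1, had log2 fold changes of 6.12 ± 0.81 and 6.30 ± 0.82 from 4 raw counts in DMSO, and the proteoglycan *Sdc3* with 3.03 ± 0.12 and 3.73 ± 0.12. *Itga1*, the collagen-binding integrin subunit that with beta 1 also binds Sema7a, had normalized counts of 5584 and 5640 in DMSO, 578 and 764 in TGF-β, and 131 and 174 in TGF-β+2APB. It had log2 fold changes of -3.06 ± 0.18 and -5.20 ± 0.21 against DMSO. *Flrt1* and *Flrt3*, membrane proteins that bind Unc5 receptors, fell with either treatment against DMSO, *Flrt1* with -2.36 ± 0.32 for TGF-β and -2.11 ± 0.32 once 2APB was added, and *Flrt3* with -1.97 ± 0.18 and -2.76 ± 0.18. Between the treatments *Sdc3* was higher by 0.70 ± 0.11, and the largest falls were *Itga1* with -2.14 ± 0.19, *Flrt3* with -0.79 ± 0.17 and the phosphatase gene *Ptprf* with -0.47 ± 0.11. Median log2 fold changes of the tested partners were 0.309, 0.369 and 0.0173 in the 3 comparisons.

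Of 54 intracellular effectors (small GTPases, their regulators, Src-family and Abl kinases, collapsin response mediators and MICALs), 50 could be tested. With TGF-β 19 rose and 9 fell, with TGF-β+2APB against DMSO 18 rose and 14 fell, and between the treatments 4 were higher and 8 lower, or 56%, 64% and 24% called, against the same 41.5%, 52.8% and 17.5%. *Ngef*, which encodes ephexin-1, an exchange factor activated by EphA receptors, had normalized counts of 3239 and 3407 in DMSO, 173 and 99.6 in TGF-β, and 13.9 and 45.4 in TGF-β+2APB. Its log2 fold changes were -4.60 ± 0.45 with TGF-β, -6.80 ± 0.52 with TGF-β+2APB against DMSO and -2.20 ± 0.50 between the treatments. *Srgap3*, a GTPase-activating protein of the Slit-Robo pathway, had normalized counts of 151 and 143 in DMSO, 2470 and 2330 in TGF-β, and 4100 and 3822 in TGF-β+2APB and went up by 4.03 ± 0.094, 4.75 ± 0.096 and 0.72 ± 0.080. *Mical1*, which oxidizes actin downstream of plexins, had 2.96 ± 0.44 and 3.99 ± 0.45 against DMSO. *Vav3*, an exchange factor downstream of Eph receptors, had 2.05 ± 0.18 with TGF-β and was lower between the treatments (-0.84 ± 0.18). Among the other large rises were *Rgs3*, a regulator of G protein signalling that binds B-type ephrins, with 1.42 ± 0.19 in TGF-β+2APB against DMSO, and *Srgap1* and *Tiam1* with 0.82 ± 0.13 and 0.61 ± 0.13 between the treatments. Among the other large falls were *Ablim3* with -1.80 ± 0.36 and -1.24 ± 0.35 against DMSO, *Dpysl3* with -0.96 ± 0.073 with TGF-β, and *Grb7*, an adaptor of receptor tyrosine kinases, with -1.62 ± 0.15 against DMSO and -0.89 ± 0.15 between the treatments. Median log2 fold changes of the tested effectors were -0.0502, 0.143 and 0.0181.

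Besides *Efna3* and *Plxna4*, exons of *Epha1*, *Ephb4*, *Efna4*, *Nrp1*, *Plxna1*, *Plxnb1*, *Plxnc1*, *Sema4a*, *Sema4c* and *Unc5c* overlap another gene by 33 to 970 bases in the GENCODE annotation of GRCm38. The strand setting of the counting is not given in the sources used here, so reads in those stretches cannot be assigned to one gene.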

How the data were processed

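RNA of NMuMG cells was selected with oligo-dT and sequenced as 50 bp single-end reads. The authors checked reads with FastQC 0.11.2, aligned them with TopHat 2.0.13 and counted them with featureCounts, and the deposited values are raw counts per gene, without normalization. The submitters' processing notes name mm10, the paper hg19, and the symbols are mouse symbols. Strand and multi-mapping settings are not given in the sources used here. All values were even numbers, with 2 the smallest above 0, and 25 symbols had become dates. Why the values were even was not tested, and a count may stand for fewer reads than its value.

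Counts were fitted in R 4.3.3 with edgeR 4.0.16 (TMM factors, a minimum mean of 20 normalized counts, 3 groups in 1 quasi-likelihood fit, Benjamini-Hochberg FDR of 0.05 over 13353 genes). The standard error is the log2 fold change over the square root of F. Levels per kb use the union of GENCODE exons on GRCm38, and promoters are from RefSeq (GRCm38.p6). Values in every library are given for genes called and changed by 1 or more on the log2 scale in any comparison and for the most abundant gene per kb of each family, and for Sema6d and Plxnc1, chosen after their values were seen. Partners and effectors are named for the 3 largest called changes in each direction. The genes and lists were chosen with earlier results of these data known. One gene of the TGF-β response check is not reported here.

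Alternatives were RLE factors or library size only, no filter, DESeq2 1.42.0 with and without its prior, the replicate number as a block, only the 4 libraries compared, halved counts, calls at an FDR of 0.01 or with a change of 1 on the log2 scale, and each library left out in turn. Halved counts were run because all values were even, and a crossed block was added after seeing the data. Totals of 71840570 to 79473182 counts a library limit the precision of only the lowest genes.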

Additional observations from a re-analysis of the deposited data

How the results depend on the processing

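For the 25 genes called and changed by 1 or more on the log2 scale, 59 changes were followed over 825 alternative values: 763 kept their direction and call, 62 lost the call and 0 reversed. Of the 62, 17 were lost without DMSO replicate 1, 14 without DMSO replicate 2 and 9 in fits of only the 4 libraries compared, which leave fewer samples for the spread; the cause of the others was not tested. RLE factors, library size and both DESeq2 fits moved no member count by over 1.5 times. Of all 13353 genes tested, 3369 passed with TGF-β at an FDR of 0.01 and 2117 at a log2 fold change of 1. With TGF-β+2APB against DMSO, 3029 reached a log2 fold change of 1. Between the treatments, 601 passed at an FDR of 0.01, 840 at a log2 fold change of 1, and 860 of 13151 with only the 4 libraries compared. With 1 library left out, the calls over all genes moved too. They fell in all 3 comparisons without any 1 of the DMSO and TGF-β+2APB libraries and rose without either TGF-β library. Losses in such fits are therefore not particular to the genes described here. Counts of the 50 genes called with TGF-β were 21 at an FDR of 0.01, 17 at a log2 fold change of at least 1 and 19 to 32 with 1 library left out (lowest without DMSO replicate 1, with 21 without DMSO replicate 2). For TGF-β+2APB against DMSO, 23 reached a log2 fold change of 1. Between the treatments, 8 passed with only the 4 libraries compared, 8 at an FDR of 0.01, 10 at a log2 fold change of 1 and 8 to 22 with 1 library left out (8 without either DMSO library, 10 without TGF-β+2APB replicate 1). Partners numbered 10 and 11 past a log2 fold change of 1 in the comparisons of TGF-β and TGF-β+2APB with DMSO, and 11 to 18 in the latter with 1 library left out (11 without DMSO replicate 1). Between the treatments, 2 partners passed with only the 4 libraries compared, 1 at an FDR of 0.01, 1 at a log2 fold change of 1, and 1 to 8 with 1 library left out (1 without either DMSO library, 2 without TGF-β+2APB replicate 1, 3 without replicate 2, 8 without either TGF-β library). Effectors with TGF-β numbered 17 at an FDR of 0.01, 6 past a log2 fold change of 1, and 12 to 35 with 1 library left out (12 and 13 without DMSO replicates 1 and 2), and 12 passed a log2 fold change of 1 with TGF-β+2APB against DMSO. Between the treatments, effectors numbered 3 with only the 4 libraries compared, 2 at an FDR of 0.01, 1 past a log2 fold change of 1, and 1 to 28 with 1 library left out (3 without either DMSO library, 28 without TGF-β replicate 2, 1 and 6 without TGF-β+2APB replicates 1 and 2). As the count minimum also acts on the mean of fewer libraries, Plxnc1 had no value without TGF-β+2APB replicate 2.

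Same-numbered libraries did not deviate together (r of 0.148, -0.458 and -0.255 over genes), so the numbers were not taken as pairs. With a replicate block, 30, 36 and 14 of the 50 genes passed in the 3 comparisons, with 3 partners and 6 effectors between the treatments. Exchanging the TGF-β+2APB replicates in the block, added after seeing the data, gave 30, 35 and 19.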
